A study of Homo sapiens with 12 samples.

Results

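The genes *CLIP4*, *ALK*, *PTPN4*, *RPRM*, *GALNT13*, and *GAD1* are 6 of the 1247 protein-coding genes on human chromosome 2, and of 20033 protein-coding genes in all. They were chosen from the values described here: each is assigned to a place on chromosome 2 where STAT5B ChIP-Seq summits of several T-ALL lines fell next to the same STAT5 palindrome, so their summits, palindromes, and shared positions are given as a description without a test. The series holds STAT5B ChIP-Seq of 6 human T-ALL lines, with 1 STAT5B library and 1 input library for each. DND-41, KOPT-K1, SUP-T13, and HSB-2 are labelled as having high STAT5 activation, and JURKAT and LOUCY low activation; following the paper, they are called high and low pY-STAT5 lines. All 6 are labelled as lymphoid precursor T cells of WT genotype, were grown in RPMI medium without a stated treatment, and are labelled with the same anti-STAT5B antibody, although the paper lists a further one for ChIP-Seq. The paper nevertheless describes a biallelic activating mutation in the SH2 domain of STAT5B in KOPT-K1 and an activating *IL7R* insertion with loss of *PTPRC* function in DND-41. With 1 library of each kind per line, the values of a line have no replicates.

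STAT5 proteins are activated by JAK kinases downstream of cytokine receptors such as the IL-7 receptor, which developing T cells need. Once phosphorylated on tyrosine, they form dimers that enter the nucleus and bind a DNA palindrome known as the GAS motif, TTCNNNGAA, where N is any base. The genes described here do not form a pathway: *CLIP4* encodes a microtubule-binding protein, *ALK* a receptor tyrosine kinase that is activated by fusions or mutations in some lymphomas and neuroblastomas, and *PTPN4* a nonreceptor tyrosine phosphatase, whereas *RPRM* encodes an inducer of cell cycle arrest downstream of p53, *GALNT13* an enzyme that starts mucin-type O-glycosylation, and *GAD1* an enzyme that makes the neurotransmitter GABA.

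The reference sequences of the 6 sites are shown because the summits of different lines converged on them. Each run has 61 bases of the plus strand of GRCh38, with every GAS palindrome in capitals. The runs lie at chr2:29139673-29139733 (*CLIP4*), chr2:29936187-29936247 (*ALK*), chr2:119929632-119929692 (*PTPN4*), chr2:153176980-153177040 (*RPRM*), chr2:153718010-153718070 (*GALNT13*), and chr2:170843875-170843935 (*GAD1*).
CLIP4 site: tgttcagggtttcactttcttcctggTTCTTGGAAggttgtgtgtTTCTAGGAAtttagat
ALK site: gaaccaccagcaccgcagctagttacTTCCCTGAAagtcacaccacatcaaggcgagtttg
PTPN4 site: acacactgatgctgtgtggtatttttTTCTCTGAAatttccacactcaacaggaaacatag
RPRM site: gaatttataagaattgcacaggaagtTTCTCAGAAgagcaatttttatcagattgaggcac
GALNT13 site: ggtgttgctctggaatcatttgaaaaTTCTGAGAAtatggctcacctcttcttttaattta
GAD1 site: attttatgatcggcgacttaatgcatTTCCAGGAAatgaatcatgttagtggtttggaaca

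A peak in the deposited lists is an interval with 1 summit, the position of its highest signal, and with a fold enrichment of STAT5B over input, a linear ratio. Read counts are not part of these lists, so the depth of the libraries is unknown and fold enrichments of different lines can be compared only with caution. On chromosome 2, the intervals covered 76.4% of the sequence in DND-41, 60.3% in KOPT-K1, 82.2% in SUP-T13, 80.3% in HSB-2, 80.3% in JURKAT, and 81.3% in LOUCY. The longest interval there spanned 13 Mb in DND-41, 18.03 Mb in KOPT-K1, 46.77 Mb in SUP-T13, 30.94 Mb in HSB-2, 91.62 Mb in JURKAT, and 84.12 Mb in LOUCY. An interval over a gene therefore told little. All 6 genes were overlapped by an interval in each of the 6 lines, as were 75.1% of the protein-coding genes on chromosome 2 in DND-41, 60.9% in KOPT-K1, 82.4% in SUP-T13, 77% in HSB-2, 78.3% in JURKAT, and 80.4% in LOUCY. The summits were used instead, and a summit was assigned to a gene when it lay in the gene body, within 2 kb of an annotated start site, or when no other protein-coding gene was nearer.

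In total, 141 summits were assigned to the 6 genes, 11 of them within 2 kb of a start site, 107 elsewhere in a gene body, and 23 outside as the nearest gene. *ALK* held 100, *CLIP4* 30, *GALNT13* 4, and *PTPN4*, *RPRM*, and *GAD1* 3 each, with 2 summits in the overlap of *CLIP4* and *ALK* counted for both. By line, DND-41 had 81, HSB-2 28, JURKAT 14, KOPT-K1 11, SUP-T13 5, and LOUCY 2. DND-41 thus gave more than the other lines together, and without it the number fell from 141 to 60. The high pY-STAT5 lines had a mean of 31.25 ± 34.6 (SD, n = 4) and the low ones of 8.0 ± 8.49 (SD, n = 2), and the ranges of 5 to 81 and 2 to 14 overlapped. Of the 6 genes, 6 had a summit in KOPT-K1 and HSB-2, 5 in DND-41, 3 in SUP-T13, 2 in JURKAT, and 1 in LOUCY. Among all protein-coding genes on chromosome 2, the share with a summit was 19.4% in KOPT-K1, 12.7% in HSB-2, 31% in DND-41, 20.6% in SUP-T13, 9.46% in JURKAT, and 10.2% in LOUCY; as the genes were chosen for their summits, nothing is read from the difference.

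A GAS palindrome wholly within 50 bp was found at 19 of the 141 summits, and all 19 belonged to high pY-STAT5 lines: 7 in DND-41, 7 in HSB-2, 3 in KOPT-K1, and 2 in SUP-T13. Over the whole chromosome, 369 of 4652 summits (7.93%) had one, with shares of 16.8% in DND-41, 5.9% in KOPT-K1, 3.77% in SUP-T13, 12% in HSB-2, 2.55% in JURKAT, and 2.48% in LOUCY. The 7 of 81 summits of DND-41 are thus below its share for the chromosome. By contrast, 7 of 28 in HSB-2, 3 of 11 in KOPT-K1, and 2 of 5 in SUP-T13 are above the shares of these lines. The high pY-STAT5 lines had a mean of 4.75 ± 2.63 (SD, n = 4) and the low ones of 0 (n = 2). The ranges did not overlap, but the genes were chosen for such summits, so nothing is read from this either. The 6 genes counted 5 with such a summit in DND-41, 5 in HSB-2, 3 in KOPT-K1, and 2 in SUP-T13, against 11.5%, 3.93%, 3.69%, and 3.61% of the protein-coding genes on chromosome 2, respectively. In LOUCY and JURKAT, where none of the 6 genes had one, these shares were 0.321% and 0.882%, so that a value of 0 of 6 is near the background of these lines. All 3 summits of *PTPN4*, of *RPRM*, and of *GAD1* lay next to a palindrome, as did 2 of 4 of *GALNT13*, 2 of 30 of *CLIP4*, and 6 of 100 of *ALK*. The last 2 are near the share of all summits of chromosome 2, but that share pools the lines in other proportions. At *ALK*, 3 of 68 summits in DND-41 and 3 of 22 in HSB-2 had a palindrome, against 16.8% and 12% of the chromosome 2 summits of these lines.

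Summits of at least 2 lines that followed each other at no more than 200 bp, with a palindrome at 1 or more of them, were called a shared GAS site. Chromosome 2 had 32 shared GAS sites assigned to 34 genes (2.73% of its protein-coding genes), 26 with summits of 2 lines and 6 with summits of 3, and none with more. The 6 sites with 3 lines were those of *CLIP4*, *ALK*, *PTPN4*, *RPRM*, *GALNT13*, and *GAD1*, 1 for each gene. Among all chromosomes, 89 such sites were found, 7 of them with 3 lines, and chromosome 1, with 48, had 0 with 3 lines. The 3 lines were always high pY-STAT5 lines at the 6 sites: KOPT-K1, DND-41, and HSB-2 had a summit at 5 of the 6, SUP-T13 at 3, and LOUCY and JURKAT at 0. Sites of this kind were mostly those of high pY-STAT5 lines on the whole chromosome: 28 of the 32 had summits of these lines only, and LOUCY had a summit at 1 and JURKAT at 4 of the 32, so that 0 of 6 is near this background. On chromosome 1, 26 of 48 had high pY-STAT5 lines only. In addition, both low pY-STAT5 lines had an interval over each of the 6 palindromes, with its single summit elsewhere. As an interval reports 1 summit, a missing summit inside a long interval does not show that STAT5B was absent there.

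*PTPN4* (chr2:119759922-119984899, plus strand) had its site in intron 13 of the canonical transcript, 2.618 kb from the nearest annotated start site, with the palindrome TTCTCTGAA at chr2:119929658-119929666. The summits of 3 lines lay within 11 bp of each other, the tightest of the 6 sites, at 4 bp (SUP-T13), 12 bp (HSB-2), and 15 bp (KOPT-K1) from the center of the palindrome. Fold enrichment was 5.14 in HSB-2, 4.47 in KOPT-K1, and 4.13 in SUP-T13, with a −log10 q of 117, 19.8, and 27.2. These values ranked 10 of 3052, 22 of 2755, and 11 of 4368 in the respective lists, so the *PTPN4* site was among the strongest summits of these lines. The intervals around it were nevertheless 6.051 Mb, 5.491 Mb, and 17.22 Mb long. DND-41 behaved differently: the palindrome fell in a gap of 10582 bp between an interval ending at 119924363 and another starting at 119934946, and the nearest summit was 83.3 kb away. No other summit was assigned to *PTPN4* in any line, although its body holds 80 GAS palindromes.

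*GAD1* (chr2:170813213-170861151, plus strand) had its site in intron 6 of the canonical transcript, at a distance of 103 bp from an annotated alternative start site, with the palindrome TTCCAGGAA at chr2:170843901-170843909. Fold enrichment was 5.43 in DND-41, 2.85 in KOPT-K1, and 3.88 in HSB-2, with a −log10 q of 48.0, 5.89, and 43.0. DND-41 had here the highest fold enrichment of all summits assigned to the 6 genes, and its interval of 2694 bp was the shortest at any of the 6 sites. The same site lay in an interval of 210.6 kb in KOPT-K1 and of 5.821 Mb in HSB-2, although their summits were only 40 bp and 9 bp from the center of the palindrome. In SUP-T13, an interval of 14.82 Mb covered the site with its summit 4.468 Mb away. *GAD1* has 14 palindromes in its body, and 1 of them was near a summit.

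*RPRM* and *GALNT13* are neighbors, and both sites lay outside protein-coding genes. *RPRM* (chr2:153477338-153478762, minus strand) is a gene of 1425 bp with 1 exon and no GAS palindrome in its body. Its site was 300.3 kb downstream of the gene, inside an annotated lncRNA gene, with the palindrome TTCTCAGAA at chr2:153177006-153177014, and the next protein-coding gene, *ARL6IP6*, was 414.6 kb away. Fold enrichment was 4.98 in DND-41, 2.93 in KOPT-K1, and 4.96 in HSB-2, with a −log10 q of 18.8, 6.38, and 54.1. DND-41 and HSB-2 were thus alike and KOPT-K1 was lower, while the 3 summits spread over 21 bp.
*GALNT13* (chr2:153871922-154453979, plus strand) had its site 153.9 kb upstream, with the palindrome TTCTGAGAA at chr2:153718036-153718044, and *RPRM* was the next gene at 239.3 kb. Fold enrichment was 5.25 in DND-41, 2.77 in KOPT-K1, and 4.60 in HSB-2, with a −log10 q of 27.8, 5.42, and 73.3. The summits of DND-41 and HSB-2 were 13 bp and 17 bp from the center of the palindrome on opposite sides, whereas that of KOPT-K1 was 186 bp away and had no palindrome within 50 bp. None of the 230 palindromes in the body of *GALNT13* was near a summit, and its only other summit, in KOPT-K1, lay 94367 bp downstream of the gene with a fold enrichment of 2.46. Assignment of these sites to *RPRM* and *GALNT13* rests on distance alone, and no expression was measured in these libraries.

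*CLIP4* (chr2:29097705-29199777, plus strand) had the weakest of the 6 sites, in intron 6 of the canonical transcript and 8.962 kb from an annotated start site. Its main palindrome, TTCTTGGAA, lies at chr2:29139699-29139707, and a further one starts at 29139718. Fold enrichment was 2.70 in DND-41, 2.09 in SUP-T13, and 2.07 in KOPT-K1, with a −log10 q of 4.59, 3.64, and 2.78. The KOPT-K1 value was below the median of 2.08 of its own list and its summit was 131 bp from the palindrome, so that the third line of this site counts through the position of its summit and not through a palindrome within 50 bp; another palindrome, starting at 29139491, was centered 77 bp from this summit. The intervals were short, at 7.816 kb, 3.992 kb, and 9.711 kb. HSB-2 had no interval over the site, which lay in a gap of 70433 bp. Here the low pY-STAT5 lines had short intervals as well: the LOUCY interval of 19.9 kb had its summit 1037 bp from the palindrome with a fold enrichment of 1.62, and that of JURKAT, of 33.41 kb, had it 8402 bp away at 2.37. Over the whole gene, the 30 summits had fold enrichments from 1.62 to 2.70 with a median of 2.13. The site was thus within the range of other *CLIP4* summits in KOPT-K1, the lowest of 3 in SUP-T13, and the highest of 11 in DND-41.

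*ALK* (chr2:29192774-29921586, minus strand) spans 728.8 kb and overlaps *CLIP4* by 7004 bp at its 3′ end. Its site lay 14.63 kb upstream of the gene, in an annotated lncRNA gene, with the palindrome TTCCCTGAA at chr2:29936213-29936221. Fold enrichment was 3.74 in DND-41, 2.67 in SUP-T13, and 2.53 in HSB-2, with a −log10 q of 10.1, 5.54, and 6.51. The summits of HSB-2 and DND-41 were 8 bp and 31 bp from the center of the palindrome, and that of SUP-T13 was 64 bp away, beyond the window of 50 bp. The interval was 6.953 kb long in DND-41, 28.88 kb in HSB-2, and 966.7 kb in SUP-T13. KOPT-K1, LOUCY, and JURKAT had intervals over the site with summits 87.68 kb, 211.4 kb, and 135.9 kb away.

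Most *ALK* summits came from a single line. DND-41 had 68, HSB-2 22, JURKAT 8, KOPT-K1 1, SUP-T13 1, and LOUCY 0. In DND-41 they ranged in fold enrichment from 2.08 to 4.05 with a median of 2.29, close to the median of 2.27 of its whole list. The highest, at 4.05 with a −log10 q of 11.97, lay at 29706969 in intron 2, 12 bp from the center of a palindrome with the same 9 bases as that of *GAD1*. Each of the other lines had an interval over this position, with its single summit elsewhere. Their missing summits thus do not show that STAT5B was absent there. The run at chr2:29706927-29706987 is shown because no other line had a summit within 11.09 kb of it.
ALK intron 2 site, DND-41: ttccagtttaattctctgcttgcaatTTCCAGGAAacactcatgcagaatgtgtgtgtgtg

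Further GAS summits of a single line lay in intron 1 of *ALK*, at 29749209 in DND-41 (fold enrichment 2.70) and at 29774872 and 29861550 in HSB-2 (2.00 and 1.88). At these positions as well, each of the other lines had an interval with its summit elsewhere. The HSB-2 summit at 29861550 was 348 bp from a DND-41 summit, just outside the distance of 200 bp that makes a shared site. A summit pair of DND-41 and HSB-2 in the *ALK* body, at 29315186 and 29315260, and a pair of KOPT-K1 and DND-41 in *CLIP4*, at 29107405 and 29107440, were shared but had no palindrome within 50 bp. Of the 8 places where lines shared a summit at the 6 genes, 6 thus had a palindrome, against 32 of 127 such places on chromosome 2 (25.2%), but the genes were chosen for these 6. In JURKAT, the 8 summits of *ALK* had fold enrichments from 1.68 to 2.63 and 0 had a palindrome, which is near the 12 of 470 summits with one in JURKAT on the whole chromosome.

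**Figure D1:**
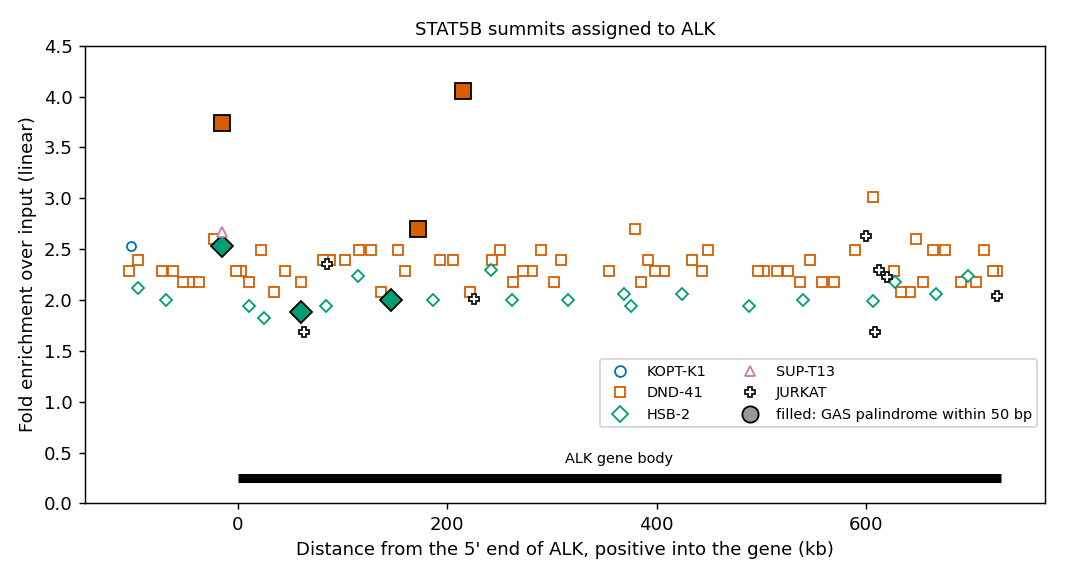
Each point is a summit assigned to *ALK*, placed by its distance in kb from the 5′ end of the gene (positive into the gene) and by its fold enrichment over input on a linear axis; symbols mark the lines and filled symbols have a GAS palindrome within 50 bp. The highest points, at 4.05 and 3.74, are DND-41 summits with a palindrome, and most others lie between 1.68 and 2.70.

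Summits were dense around *CLIP4* and *ALK* in DND-41, HSB-2, and JURKAT, but not in SUP-T13. Each interval adds 1 summit, so such counts follow the number of intervals. *ALK* was overlapped by 58 intervals for DND-41, 19 for HSB-2, and 9 for JURKAT, but by 1 each for KOPT-K1, SUP-T13, and LOUCY. These single intervals were 0.8637 Mb (KOPT-K1), 0.9667 Mb (SUP-T13), and 3.765 Mb (LOUCY) long. Whether STAT5B binding at these genes differed between lines was not tested. The stretch from the start of *CLIP4* to the end of *ALK* makes up 0.34% of chromosome 2 and held 5.85% of the chromosome 2 summits of DND-41 (67 summits), 4.6% of HSB-2 (20), 2.98% of JURKAT (14), 0.826% of LOUCY (2), 0.59% of KOPT-K1 (5), and 0.199% of SUP-T13 (3). Among the 243 bins of 1 Mb, the bin from 29 to 30 Mb ranked 2 in DND-41 with 85 summits, 6 in HSB-2 with 27, and 11 in JURKAT with 16, but 21 in LOUCY with 2, and 35 in KOPT-K1 and 37 in SUP-T13 with 6 each. The median bin held 1 summit in DND-41 and 0 in the other lines. Fold values at these genes were also coarse. In DND-41, 78 summits at *CLIP4* and *ALK* had 11 distinct fold enrichments, and 77 of the 78 values were whole multiples of a step of 0.104 within 1% of the step. In HSB-2, 22 of 24 values were whole multiples of 0.0589 at the same tolerance. Fold enrichments that differ by 1 or 2 such steps are therefore neighboring values of a coarse scale. The single-line *ALK* summit at 4.05 and the shared site at 3.74 in DND-41 were many steps above the DND-41 median of 2.29 at *ALK*.

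Across the 6 sites, the summits sat close to the palindrome. The distance from its center had a median of 21 bp over 18 summits, with a range from 4 to 186 bp, and 11 of the 18 were within 30 bp. The exceptions beyond 50 bp were KOPT-K1 at *CLIP4* and *GALNT13* and SUP-T13 at *ALK*. This closeness is largely set by how the sites were chosen, as 1 summit of a site had to have a palindrome within 50 bp and the others had to follow at no more than 200 bp. The summits of all 3 lines had a palindrome within 50 bp at *PTPN4*, *RPRM*, and *GAD1*.

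**Figure D2:**
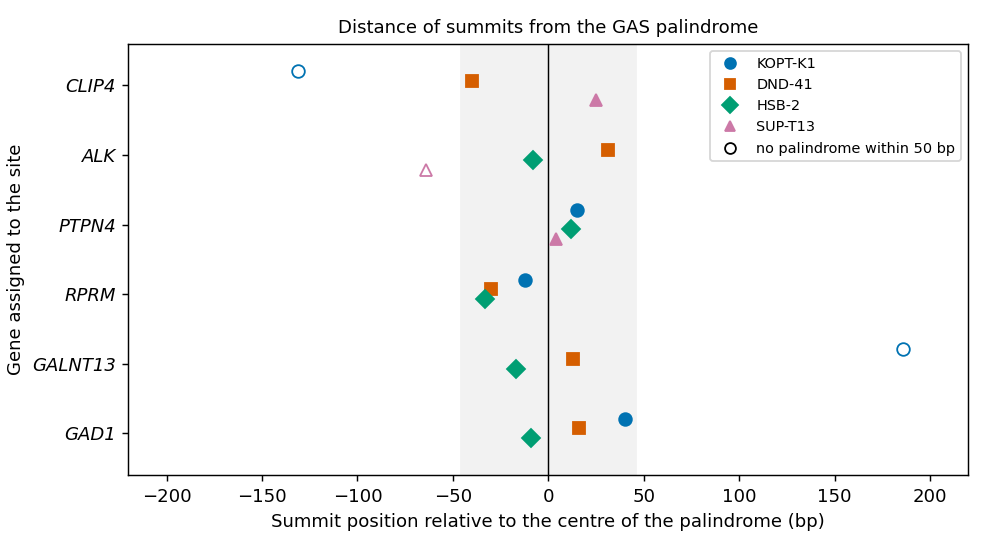
Position of each summit relative to the center of the GAS palindrome (bp, plus strand) at the 6 shared sites, by line; the gray band holds summits whose 50 bp window contains this palindrome. At *PTPN4*, *RPRM*, and *GAD1* all 3 summits fall in the band, and open symbols mark the 3 summits without a palindrome, the farthest at 186 bp.

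Fold enrichment at the 18 summits ranged from 2.07 to 5.43 with a median of 3.81. The mean over the 3 lines was 4.58 ± 0.515 (SD, n = 3) at *PTPN4*, 4.29 ± 1.18 at *RPRM*, 4.21 ± 1.28 at *GALNT13*, 4.06 ± 1.30 at *GAD1*, 2.98 ± 0.662 at *ALK*, and 2.29 ± 0.358 at *CLIP4* (SD, n = 3 lines each, which are not the same lines at each site). The means of *PTPN4*, *RPRM*, *GALNT13*, and *GAD1* differ by less than the SDs of the last 3 of them, and *ALK* and *CLIP4* differ from each other by slightly more than the larger of their SDs. KOPT-K1 was lower than DND-41 and HSB-2 at *RPRM*, *GALNT13*, and *GAD1*, where these 3 lines share the site. At *PTPN4*, however, its value of 4.47 lay between those of HSB-2 and SUP-T13. DND-41 was the highest line at *CLIP4*, *ALK*, *GALNT13*, and *GAD1*, and at *RPRM* it was level with HSB-2. Of the 18 summits, 9 ranked in the top 1% of their own list by fold enrichment, and the median rank was at 1.63% of the list. The lowest-ranked, KOPT-K1 at *CLIP4*, was at 51.9%. Of the 9 in the top 1%, 8 lay in intervals of 0.9073 to 17.22 Mb, whose summit is the highest position of a long stretch. The remaining summit, DND-41 at *GAD1*, had the highest fold enrichment of all, 5.43, in an interval of 2694 bp. With intervals of at most 100 kb, a limit set after seeing the data, only the sites of *CLIP4* and *ALK* were left. The median fold enrichment was then 2.53 instead of 3.81. As these sites had the lowest means, the fall reflects which sites were left. Long intervals with their summit elsewhere could rank high too, such as that of LOUCY at *PTPN4*, at 0.128%, but that of JURKAT there was at 43.6%.

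**Figure D3:**
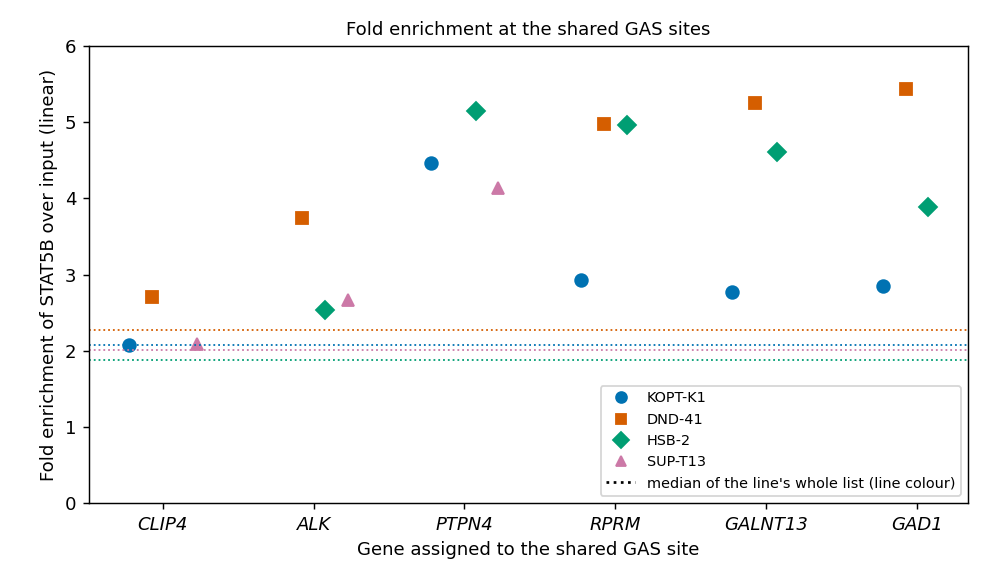
Fold enrichment of STAT5B over input (linear axis from 0) at the shared GAS site of each gene, 1 point per line with a summit there; dotted lines give the median of each line's whole list in the same color. All points lie above the median of their own list, except KOPT-K1 at *CLIP4*, and *PTPN4*, with values from 4.13 to 5.14, has the highest mean.

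The intervals varied widely in length. The 18 intervals with a summit at a site were from 2694 bp to 17.22 Mb long, with a median of 0.8535 Mb, and 12 of them were at least 0.1 Mb long. At *CLIP4*, all 3 were shorter than 10 kb, and at *PTPN4* all 3 were longer than 5 Mb. In LOUCY, a single interval of 84.12 Mb covered the sites of *PTPN4*, *RPRM*, *GALNT13*, and *GAD1*, with its summit 10.73 to 61.64 Mb away. In JURKAT, an interval of 91.62 Mb covered the same 4 sites, with its summit 30.09 to 81.01 Mb away. The lists of these lines thus had no summit that could mark these 4 sites. Interval length also bore on the count: among intervals of at most 100 kb, shared sites fell from 6 to 2 (*CLIP4* and *ALK*).

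**Figure D4:**
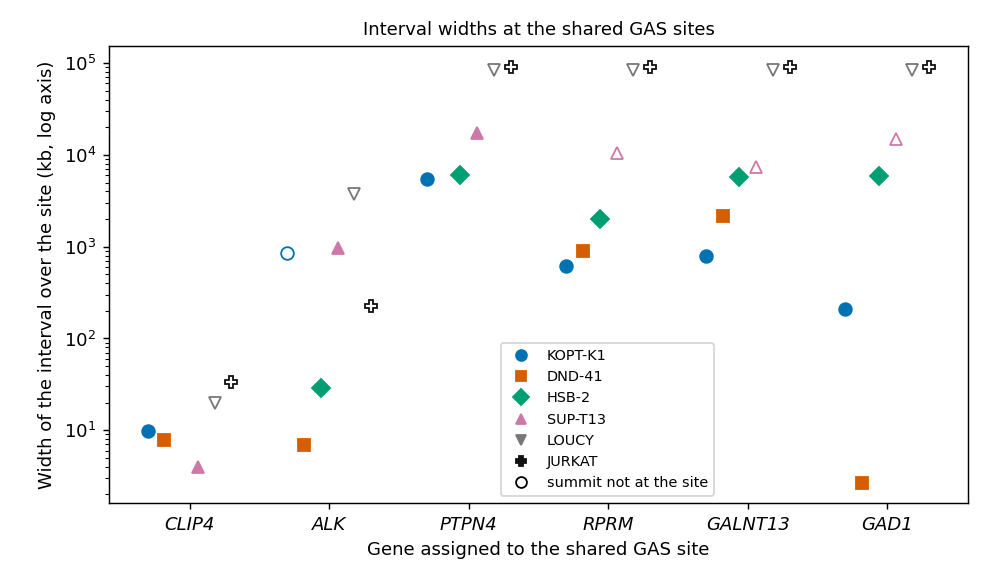
Width of the interval that covers each shared GAS site, in kb on a log axis, for each of the 6 lines; filled symbols have their summit at the site and open symbols elsewhere. The LOUCY and JURKAT intervals at *PTPN4*, *RPRM*, *GALNT13*, and *GAD1* are 84.12 and 91.62 Mb wide, and DND-41 at *GAD1* has the narrowest at 2694 bp.

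On the plus strand, the 6 palindromes each had a different spacer. Those of *RPRM* (TTCTCAGAA) and *GALNT13* (TTCTGAGAA) are reverse complements, however, and so the same palindrome read on opposite strands. Of the 6, 4 matched the stricter form TTCYNRGAA (Y is C or T, R is A or G), those of *CLIP4*, *RPRM*, *GALNT13*, and *GAD1*, against 42.4% of the 97952 GAS palindromes on chromosome 2. Near summits the stricter form was more common: 369 summits of chromosome 2 had a GAS palindrome within 50 bp, and 262 had one of the stricter form. The 4 of 6 are near that proportion. In 3 of the 6, at *RPRM*, *GALNT13*, and *GAD1*, the outer bases of the spacer were also complementary, against 35.7% on the chromosome. Only 366 palindromes of chromosome 2 (0.374%) lay within 50 bp of a summit of any list. In *ALK* it was 5 of 274, in *CLIP4* 2 of 41, and in *PTPN4* 1 of 80. Other motifs were searched on both strands within 50 bp of the center of each palindrome and set beside 4652 summits of chromosome 2. The RUNX motif TGTGGT was present at 2 sites, once at *ALK* and at 2 positions at *PTPN4*, against 9.16% of summits. None of the 6 sites held the E-box CAGCTG (4.02% of summits), the ETS motif CCGGAA (1.35%), the GATA motif AGATAA (6.96%), or the same half-sites with a spacer of 4 bases (2.49%). With 6 sites these are descriptions of the sequence only. GC content of the printed runs was from 34.4% at *RPRM* and *GALNT13* to 52.5% at *ALK*.

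The genes flanking the 6 on chromosome 2 had no shared GAS site. With such a site at 2.73% of the protein-coding genes on the chromosome, 0 of 8 flanking genes is near the background. Of these 8 neighbors, 6 had a summit and 2 had a GAS summit, *PCARE* in SUP-T13 and *YPEL5* in DND-41, against 49% and 18.7% of the protein-coding genes on chromosome 2 in any line. *YPEL5*, next to *ALK*, had 19 summits and was the 1 neighbor with a summit in all 6 lines. Among 14 paralogues of the 6 genes, 5 had a summit (*PTPN13*, *PTPN18*, *GALNT3*, *GALNT5*, and *GALNT14*), 2 had a GAS summit (*GALNT5* and *GALNT14*, both in DND-41), and 0 had a shared GAS site. Only 5 of the 14 lie on chromosomes 1 and 2. On chromosome 2 lie *PTPN18*, *GALNT3*, *GALNT5*, and *GALNT14*. There, 49% of the protein-coding genes had a summit in any line, and 11.5% had a GAS summit in DND-41. Among all protein-coding genes, the share with a summit in a single line was from 2.7% in KOPT-K1 to 5.78% in DND-41. The 5 paralogues are counted over any line, so these shares are not a like background for them. A GAS summit in DND-41 was found for 1.97% of all protein-coding genes. A shared GAS site was found for 0.439%, so that 0 of 14 with such a site is near the background. For 11 known STAT5 targets (*CISH*, *SOCS1*, *SOCS2*, *SOCS3*, *PIM1*, *IL2RA*, *BCL6*, *OSM*, *CCND2*, *BCL2*, and *BCL2L1*), 0 had a summit in any of the 6 lists, and 0 lie on chromosomes 1 and 2. These 2 chromosomes hold 97.7% of the peaks listed for DND-41, 31.8% for KOPT-K1, 99% for SUP-T13, 98% for HSB-2, 76.6% for JURKAT, and 81.1% for LOUCY. Except in KOPT-K1, most listed peaks thus lie away from the chromosomes of these targets. The count of 0 therefore also reflects which targets were listed, and a missing summit there is not read as missing STAT5B binding.

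Genes with a GAS summit in the same lines were sought among all protein-coding genes. For *ALK* and *GALNT13*, both with DND-41 and HSB-2, 41 other genes had the same lines and 14 of them a shared GAS site; the closest was *LRP1B*, a large lipoprotein receptor gene on chromosome 2, with summits at 141283941 and 141283948 and a mean fold enrichment of 4.25, followed by *VANGL1* on chromosome 1, with summits 10 bp apart and a mean of 2.51. For *CLIP4*, with DND-41 and SUP-T13, 23 genes had the same lines and 4 a shared site, the closest being *ST3GAL3* on chromosome 1, with summits 25 bp apart and a mean of 2.22; an overlapping gene model without a symbol has the same site. No gene outside the 6 had a GAS summit in the lines of *PTPN4* (KOPT-K1, HSB-2, and SUP-T13), nor in those of *RPRM* and *GAD1* (KOPT-K1, DND-41, and HSB-2). In each case, likeness means that the state of all 6 lines matched.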

How the data were processed

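STAT5B ChIP-Seq libraries and input libraries of 6 T-ALL lines were grouped by their labelled STAT5 activation. The authors filtered reads, aligned them to GRCh38 with BWA, and used MACS2 with the matching input library for peak calling; options of the peak caller are not given in the sources used here. The submitters' processing notes name BWA 0.7.15-r1140, SAMtools 1.4, deepTools 3.5.1, and R 4.2.1. The deposited values are a fold enrichment over input (a linear ratio) and a −log10 of the p-value and of the q-value, all by the authors' peak caller. The deposited score, derived from the −log10 q, was not used. Input libraries and signal tracks were not used here, and read depth is unknown.

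Summits (start plus offset) were assigned to protein-coding genes of GENCODE version 44, and palindromes were searched in the GRCh38 reference. Coordinates count from 1. Exons and introns are those of the canonical transcript. Named genes were, by rule, the 6 genes, their neighbors, listed paralogues, known STAT5 targets, and up to 2 most similar genes per gene. The genes and lists were chosen with earlier results of these data known, so no test was run. Alternatives covered the q threshold, the assignment, the palindrome and its window, the distance between summits, single lines, and interval length. Python 3.11.15, NumPy 2.4.6, and matplotlib 3.10.9 were used, and the functions were tested on simulated data.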

Additional observations from a re-analysis of the deposited data

How the results depend on the processing

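Of 60 values under alternatives, 51 moved by no more than 1 SD or, for counts, by no more than a ratio set beforehand, 9 moved further, and 0 reversed. At a −log10 q of at least 5, 18 of 141 assigned summits were left, by construction, and 5 of 6 shared sites, without that of *CLIP4*. Leaving out single lines gave 60 to 139 assigned summits and 12 to 19 GAS summits; the low values were 60 without DND-41 and 12 without DND-41 or without HSB-2. Without assignment to the nearest gene, 12 GAS summits and 3 shared sites were left, since the sites of *ALK*, *RPRM*, and *GALNT13* lie outside the genes. The difference in mean GAS summits between high and low pY-STAT5 lines fell from 4.75 to 3.0 without that assignment and to 2.25 with short intervals only. With intervals of at most 100 kb (an alternative added after seeing the data), 9 GAS summits and 2 shared sites were left, with a median fold enrichment of 2.53 at these sites against 3.81. The sites left, of *CLIP4* and *ALK*, were those with the lowest means before. The motif window, the stricter palindrome, and the distance between summits gave 4 to 7 shared sites. No paired analysis was possible because each line was used once and the numbers pair nothing. The unknown read depth limits every comparison of fold enrichment between lines.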
